A study of Mus musculus with 2 samples.

Results

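The genes described here are 43 genes of DNA replication and nucleotide supply, named one by one, out of 20807 protein-coding genes on chromosomes 1 to 19. They were followed through 2 lists of open chromatin intervals from ATAC-seq, an assay that maps accessible DNA by where a transposase can insert adapters. An interval belonged to a gene when it lay within 1 kb of one of its transcription start sites (a promoter interval). A more distant interval belonged to the gene with the nearest protein-coding start site, if that site lay within 100 kb (a distal interval). All 43 genes were found, and each had a promoter interval in both lists. They held 205 of the 127423 vehicle intervals, 69 at promoters and 136 distal, and 248 of the 179414 TAMo intervals, 68 at promoters and 180 distal. The whole TAMo list was 1.41 times as long as the vehicle list, against 1.21 times for the intervals of these genes. Distal intervals alone had a ratio of 1.32 for these genes and 1.43 for all genes, and promoter intervals of these genes a ratio of 0.986.

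Both libraries came from mouse OT-I CD8+ T cells, labelled wild type, which carry a transgenic receptor for the ovalbumin peptide OVA257-264. Every culture received that peptide for 48 h. One culture had vehicle beside the T cells and the other had TAMos, which were CD11b+Ly6G-Ly6Chigh cells taken from the spleens of mice bearing LLC tumours, a transplanted lung carcinoma. Each library was made from about 50000 CD8+ T cells sorted from its culture. There was 1 library per group, so no difference below has a replicate check or a test. The 95% exact binomial intervals cover counting error alone. They treat reads as independent molecules, which reads are not, so they may be too narrow even for that. The labels used here do not state the age or number of the mice, or how many T cells each culture held at the end.

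Replication starts where the origin recognition complex, with Cdc6 and Cdt1, loads the ring of MCM proteins on DNA. Cyclin E with Cdk2 helps to start synthesis, Cdc45 and the GINS proteins turn the ring into an active helicase, and primase, polymerases, clamp and ligase copy both strands. Ribonucleotide reductase, thymidylate synthase and thymidine kinase supply the deoxynucleotides. A T cell that has met its antigen leaves quiescence and switches these genes on as it enters S phase, many of them through E2F factors at their promoters. Accessibility shows how open a promoter is and is not a measurement of RNA or of DNA synthesis.

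Each interval has 1 or more summits, the points of highest read coverage. Coverage at a summit was recovered from the deposited peak values and divided by the most frequent background coverage of its library, 4.71 reads in vehicle and 5.80 reads in TAMo, a ratio of 1.23. The log2 ratios below are TAMo over vehicle on that scale, so 0 means equal multiples of background. Over all rows the median summit had 81 reads in vehicle and 93 in TAMo. The labelled cell type showed at its own genes: all 10 promoters on a list of CD8 T cell markers were open in both libraries, with a summed coverage of 939 and 944 times background over the 8 that had a ratio. Single markers differed in both directions, from Thy1 at 107 and 64.0 times background (log2 ratio −0.75) and Zap70 (−0.44) to Cd8b1 at 158 and 217 (0.45). Of 12 monocyte and macrophage markers, Lyz2, Ly6c2 and Ccr2 had no promoter interval in either library. Itgam, Csf1r and Adgre1 had one in TAMo alone, at 20.3, 17.2 and 5.34 times background, and Fcgr1 had one in vehicle alone, at 3.82 times. The other 5 summed to 237 times background in vehicle and 306 times in TAMo, with Cd14 at 29.9 and 70.9. These monocyte markers moved with the group, and their part in the ratios of the replication genes was not tested. No promoter of 6 neutrophil markers was open in either library. Among B cell markers, Cd79a had no promoter interval in either library, and Pax5 had one in TAMo alone. Cd79b (9.55 and 8.45 times background), Ms4a1 (5.52 and 11.2) and Ebf1 (69.2 and 51.9) were open in both.

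Promoter sequences are shown for the ends and the middle of the range of ratios: the 3 genes with the lowest ratio (Tk1, Prim1 and Mcm6), the gene nearest 0 (Orc2) and the gene with the highest ratio (Orc6). Mcm5 and Mcm7 were added, after their values were seen, because both carry the motifs discussed further on. Each line gives the 250 bases before the RefSeq start site on the gene's own strand, 5′ to 3′, in build GRCm38.p6, which is the assembly of mm10. Capitals mark exact matches to an E2F motif (TTTCCCGC, TTTCGCGC, TTTGCCGC or TTTGGCGC) or to the CCAAT box, on either strand.
Tk1, chr11:117826015-117826264, minus strand: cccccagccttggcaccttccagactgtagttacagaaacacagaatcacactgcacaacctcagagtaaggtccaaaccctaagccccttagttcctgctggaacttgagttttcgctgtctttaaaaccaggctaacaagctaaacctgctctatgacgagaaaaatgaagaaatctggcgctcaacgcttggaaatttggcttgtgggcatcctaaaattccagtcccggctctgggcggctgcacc
Prim1, chr10:128014965-128015214, plus strand: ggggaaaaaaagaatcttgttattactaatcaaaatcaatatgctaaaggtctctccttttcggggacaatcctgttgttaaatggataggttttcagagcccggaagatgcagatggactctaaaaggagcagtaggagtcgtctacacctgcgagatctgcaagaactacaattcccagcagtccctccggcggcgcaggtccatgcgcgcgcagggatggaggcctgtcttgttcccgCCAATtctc
Mcm6, chr1:128359706-128359955, minus strand: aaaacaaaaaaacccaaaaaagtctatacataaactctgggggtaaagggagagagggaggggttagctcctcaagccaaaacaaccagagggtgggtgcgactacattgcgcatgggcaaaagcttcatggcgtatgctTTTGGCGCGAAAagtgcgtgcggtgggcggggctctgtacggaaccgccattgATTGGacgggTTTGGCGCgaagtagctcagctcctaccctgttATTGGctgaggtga
Mcm7, chr5:138171884-138172133, minus strand: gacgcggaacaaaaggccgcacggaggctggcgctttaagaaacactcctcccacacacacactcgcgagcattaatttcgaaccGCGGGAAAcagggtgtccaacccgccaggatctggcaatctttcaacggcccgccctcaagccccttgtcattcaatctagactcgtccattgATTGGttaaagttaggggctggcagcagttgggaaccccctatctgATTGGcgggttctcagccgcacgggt
Mcm5, chr8:75109259-75109508, plus strand: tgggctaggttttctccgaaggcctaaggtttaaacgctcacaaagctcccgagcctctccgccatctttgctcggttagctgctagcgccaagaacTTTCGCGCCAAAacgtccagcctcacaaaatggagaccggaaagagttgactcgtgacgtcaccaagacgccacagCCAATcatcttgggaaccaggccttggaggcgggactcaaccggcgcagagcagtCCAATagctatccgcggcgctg
Orc2, chr1:58505110-58505359, minus strand: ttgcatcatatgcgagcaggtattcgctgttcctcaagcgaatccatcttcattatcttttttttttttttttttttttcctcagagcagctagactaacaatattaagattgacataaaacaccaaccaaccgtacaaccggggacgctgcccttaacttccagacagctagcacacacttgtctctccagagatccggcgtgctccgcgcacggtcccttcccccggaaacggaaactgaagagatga
Orc6, chr8:85299382-85299631, plus strand: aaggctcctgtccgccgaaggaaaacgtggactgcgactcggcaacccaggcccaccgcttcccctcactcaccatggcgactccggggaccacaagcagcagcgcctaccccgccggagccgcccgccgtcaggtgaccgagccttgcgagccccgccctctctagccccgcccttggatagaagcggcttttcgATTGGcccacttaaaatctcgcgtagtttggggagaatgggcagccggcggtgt

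Most of the 43 promoters carried less coverage in the TAMo library once depth was scaled out. Their median log2 ratio was −0.22, against 0.03 over all 12942 promoters that had overlapping intervals in both lists. On the authors' fold enrichment, which divides by the local background, the median was 0.17 against 0.09 over all promoters, and the direction reversed. Coverage was at least 1.3-fold lower in TAMo at 9 of the 43 genes, against 7.77% of all promoters. These were Tk1, Prim1, Mcm6, Chaf1a, Tyms, Cdk2, Mcm7, Rrm2 and Rfc2. None of the 43 was at least 1.3-fold higher, against 15.1% of all promoters. The middle of the distribution was shifted as well as its tail, since 36 of 43 genes (83.7%) lay below 0, against 44.0% of all promoters. The quartiles were −0.35 and −0.05 for these genes and −0.13 and 0.22 for all promoters.

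The shift was small at most genes and large at a few. Ratios ran from −1.75 at Tk1 to 0.19 at Orc6, and 7 genes were at least 1.5-fold lower (3.28% of all promoters). Of the genes near the 1.3-fold limit, Rfc2 lay inside it at −0.53, while Cdc6 and Pole2 lay just outside at −0.37 each. The counting interval lay wholly below 0 at 26 genes (17.5% of all promoters) and wholly above 0 at 2 genes, Orc6 and Gins4 (26.7%). All 43 genes lie below 0 if ratios are centred on the median of all regions shared by both lists, 0.28, since that exceeds the ratio of Orc6. Most promoters then lie below 0 as well. Their median becomes −0.24, and 0.28 lies between percentiles 79 and 80 of all promoters. Coverage at these promoters was high in both libraries, with a median of 667 reads in vehicle and 755 reads in TAMo, and the median half-width of an interval was 0.15 on the log2 scale.

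**Figure D1:**
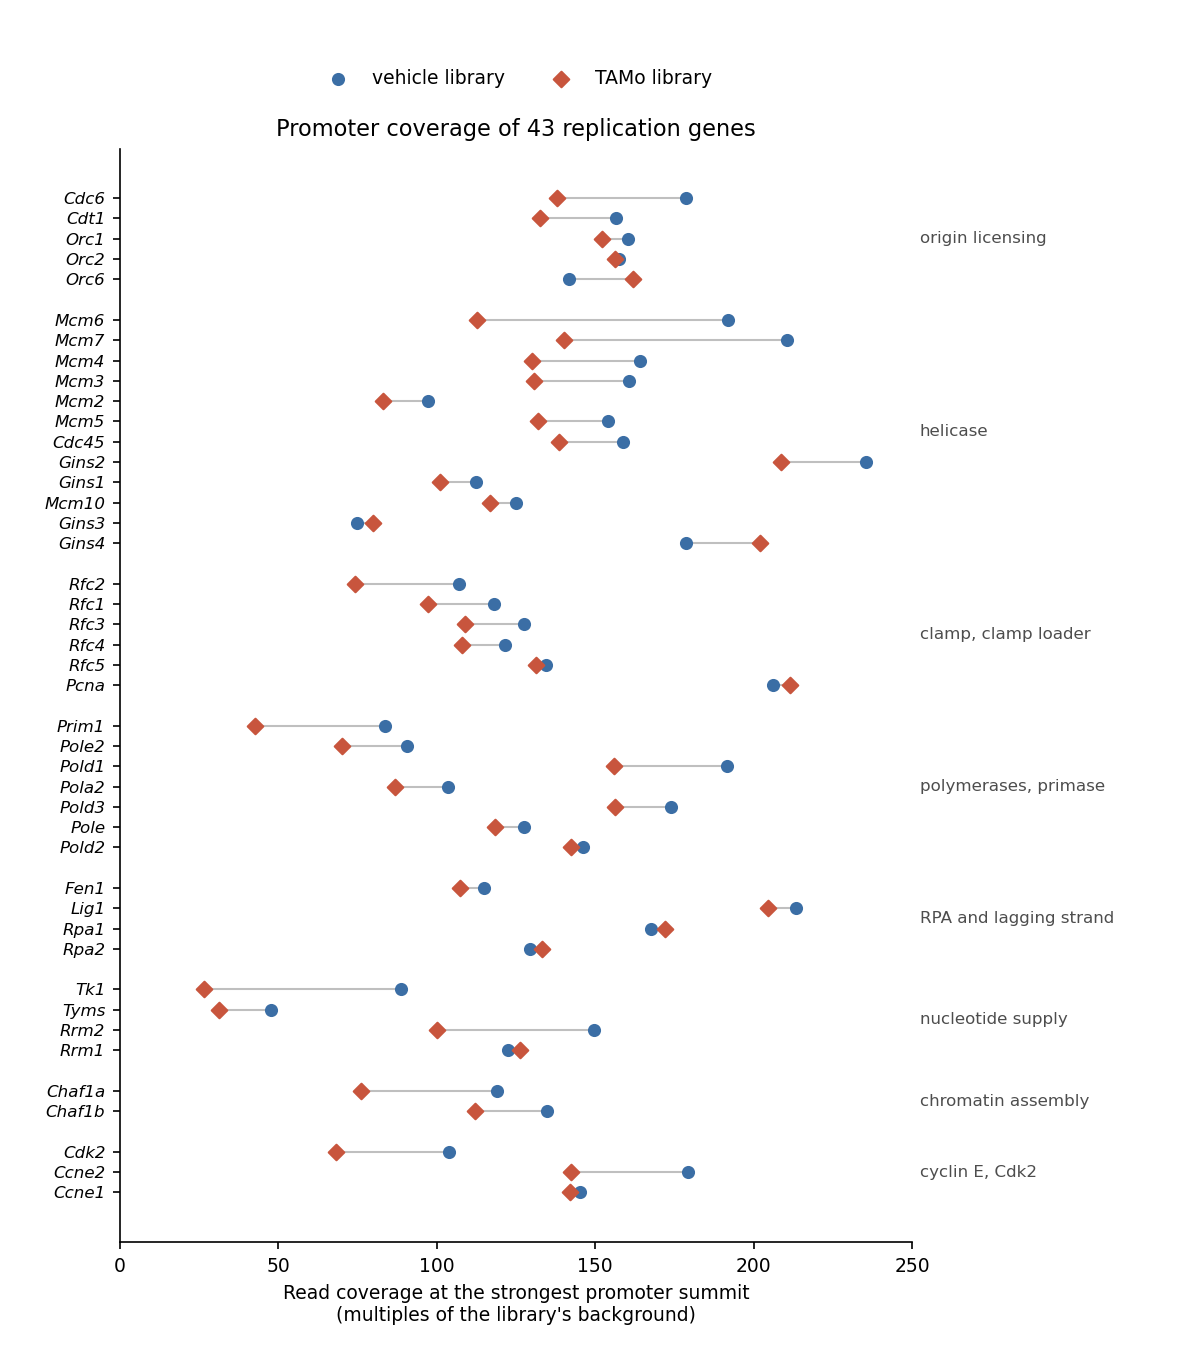
Read coverage at the strongest promoter summit of each of the 43 genes, in multiples of the library's background (horizontal axis), with circles for the vehicle library and diamonds for the TAMo library, 1 library each, grouped by role. The TAMo diamond lies left of the vehicle circle at 36 genes (44.0% of all promoters), with the widest relative gap at Tk1 (88.7 and 26.4 times background). On the authors' fold enrichment 34 of the genes were higher in TAMo, against 67.0% of all promoters.

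Among the genes of nucleotide supply, 3 of 4 were at least 1.3-fold lower in TAMo and the median log2 ratio was −0.59 (−0.05 on the authors' fold enrichment). On the authors' fold enrichment all promoters had a median of 0.09, which is the reference for each group below. Tk1, the thymidine kinase that salvages thymidine in S phase, had 418 reads at its strongest summit in vehicle and 153 reads in TAMo, or 88.7 and 26.4 times background. Its log2 ratio of −1.75 (95% interval −2.03 to −1.48) was a 3.36-fold difference and stood at percentile 0.0618 of all promoters. Tyms, thymidylate synthase, had 224 and 181 reads, or 47.6 and 31.2 times background, with a log2 ratio of −0.61 (−0.90 to −0.32). Rrm2, the S-phase subunit of ribonucleotide reductase, had 704 and 580 reads, or 149 and 100 times background, with a log2 ratio of −0.58 (−0.74 to −0.42). Its partner Rrm1, the large subunit, was nearly level at 577 and 733 reads, or 123 and 126 times background, with a log2 ratio of 0.04 (−0.11 to 0.20).

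At their strongest summits none of the 5 origin licensing genes passed the 1.3-fold limit. Their median log2 ratio was −0.08, or 0.31 on the authors' fold enrichment. Cdc6, the loader of the MCM ring, had 841 reads in vehicle and 800 in TAMo, or 179 and 138 times background, a log2 ratio of −0.37 (−0.51 to −0.23). The other paired Cdc6 summit was weaker, with 139 and 73 reads and a log2 ratio of −1.23 (−1.66 to −0.81). Cdt1, which loads the ring with Cdc6, had 737 and 769 reads, at different summits, and a log2 ratio of −0.24. Orc1, the subunit of the origin recognition complex that varies with the cell cycle, had 756 and 882 reads (−0.08), and Orc2, another subunit, had 742 and 907 reads (−0.01). Orc6, the smallest subunit, had 667 and 939 reads, or 142 and 162 times background, the highest log2 ratio of all 43 genes at 0.19 (0.05 to 0.34).

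The 12 helicase genes had different medians by complex, but counting intervals overlapped between complexes, as at Mcm5 (−0.37 to −0.07) and Gins2 (−0.29 to −0.06). All 6 genes of the MCM ring lay below 0 with their intervals and had a median log2 ratio of −0.32. On the authors' fold enrichment their median was 0.07, against 0.09 for all promoters. Mcm4 rests on different summits in the 2 libraries, and at its paired summits the log2 ratios were −0.09 (−0.24 to 0.07) and 0.07 (−0.19 to 0.32). Mcm6 had 904 reads in vehicle and 653 in TAMo, or 192 and 113 times background, a log2 ratio of −0.77 (−0.92 to −0.62). Mcm7 had 992 and 813 reads, or 211 and 140 times background, a log2 ratio of −0.59 (−0.72 to −0.45). The other 4 ring genes (Mcm4, Mcm3, Mcm2 and Mcm5) lay between −0.33 and −0.22, close to one another: Mcm3 had 757 and 758 reads, and Mcm5 had 725 and 765. The GINS genes, whose products hold the helicase together, had a median log2 ratio of −0.03 (0.15 on the authors' fold enrichment) and lay on both sides of 0. Gins2 had 1109 and 1210 reads (−0.17), the highest vehicle coverage of the 43 genes, and Gins1 had 530 and 586 reads (−0.16). At the other paired Gins1 summit, 19 bp from a start site, the log2 ratio was −0.31 (−0.52 to −0.10). Gins3 had 353 and 464 reads (0.09), and Gins4 had 841 and 1172 reads, or 179 and 202 times background, a log2 ratio of 0.18 (0.05 to 0.31). Cdc45, the third part of the active helicase, had 748 and 804 reads (−0.20), and Mcm10, which helps to activate it, had 589 and 678 (−0.10).

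All 7 genes of primase and the polymerases lay below 0, with a median log2 ratio of −0.25, and 1 of them passed the 1.3-fold limit. On the authors' fold enrichment their median was 0.03, against 0.09 for all promoters. Prim1, the catalytic subunit of primase, had 394 reads in vehicle and 248 in TAMo, or 83.7 and 42.8 times background, a log2 ratio of −0.97 (−1.20 to −0.74). That was the second lowest ratio of the 43. Pole2, a subunit of polymerase epsilon, had 427 and 407 reads (−0.37), and the catalytic subunit Pole had 600 and 686 reads (−0.11). For polymerase delta, the catalytic subunit Pold1 had 902 and 904 reads (−0.30), Pold3 had 819 and 906 (−0.15), and Pold2 had 688 and 826, or 146 and 142 times background, a log2 ratio of −0.04 (−0.18 to 0.11). Pola2, a subunit of the polymerase that extends primers first, had 487 and 504 reads (−0.25).

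The clamp Pcna, the ring that keeps polymerases on DNA, was level at its strongest summit, while most genes of its loader were lower. Pcna had 971 reads in vehicle and 1226 in TAMo there, or 206 and 211 times background, a log2 ratio of 0.04 (−0.09 to 0.16). The other paired Pcna summit, 551 bp downstream, had 826 and 831 reads. Its log2 ratio of −0.29 (−0.43 to −0.15) lay in the range of the loader genes. The 5 RFC genes of the loader all lay below 0, with a median of −0.23 (0.24 on the authors' fold enrichment). Rfc2 had 504 and 430 reads, or 107 and 74.1 times background, a log2 ratio of −0.53 (−0.72 to −0.34). Rfc1 (−0.28), Rfc3 (−0.23) and Rfc4 (−0.17) had intervals wholly below 0, and Rfc5 did not, at 633 and 762 reads (−0.03).

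The genes for single-strand binding and lagging strand joining lay nearest to 0 as a group, with a median log2 ratio of −0.01 (0.16 on the authors' fold enrichment) and counting intervals spanning 0 at the strongest summits. Fen1, the flap nuclease that trims Okazaki fragments, had 541 and 622 reads, or 115 and 107 times background (−0.10; −0.27 to 0.07). Those Fen1 summits lie apart, and at the place of the strongest vehicle summit the log2 ratio was −0.26 (−0.44 to −0.09). Lig1, the ligase that seals them, had 1005 and 1186 reads (−0.06). The subunits of the single-strand binding protein were level, Rpa1 at 789 and 997 reads (0.04) and Rpa2 at 609 and 772 reads, or 129 and 133 times background (0.04; −0.11 to 0.20).

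Both genes of chromatin assembly factor 1, which places histones on new DNA, lay below 0, with a median of −0.46. On the authors' fold enrichment their median was 0.01, against 0.09 for all promoters. Chaf1a had 561 reads in vehicle and 441 in TAMo, or 119 and 76.0 times background, a log2 ratio of −0.65 (−0.83 to −0.47). Chaf1b had 635 and 650 reads, or 135 and 112 times background, a log2 ratio of −0.27 (−0.43 to −0.11). Of the kinase that starts S phase and its cyclins, Cdk2 had 489 and 396 reads, or 104 and 68.3 times background, a log2 ratio of −0.60 (−0.80 to −0.41). Ccne2 had 844 and 826 reads (−0.33), and Ccne1 had 684 and 824 reads, or 145 and 142 times background (−0.03; −0.18 to 0.12). The median of these 3 was −0.33, or 0.28 on the authors' fold enrichment.

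**Figure D2:**
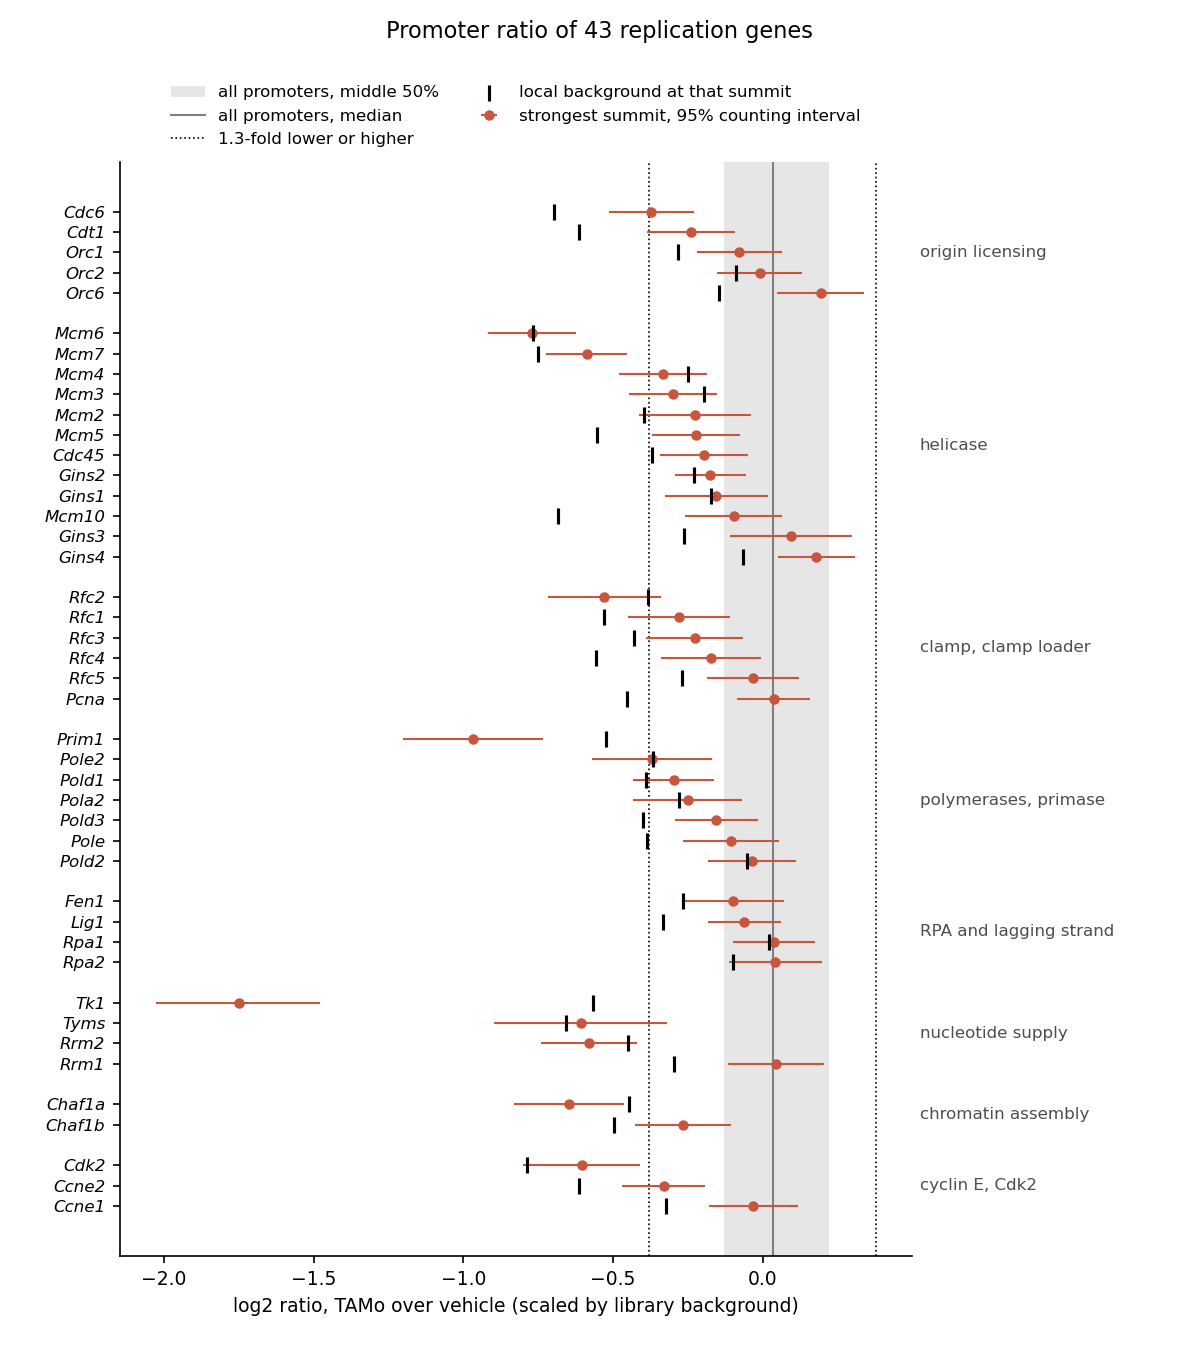
Log2 ratio of promoter coverage, TAMo over vehicle (horizontal axis), at the strongest summit of each of the 43 genes (points, with 95% counting intervals) and of the local background implied at that summit (black ticks), over the middle 50% of all promoters (grey band). The points lie below the all-promoter median of 0.03 at most genes, and the ticks lie below 0 at 42 of 43 genes (53.1% of all promoters). The ratio of the authors' fold enrichment, which follows the distance between point and tick, was above 0 at 34 genes (67.0% of all promoters).

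Local background moved with these ratios. The peak values also give the local background that the authors' peak caller set at each summit, and on the same scale it was lower in TAMo at 42 of 43 genes (97.7%, against 53.1% of all promoters). Its median log2 ratio was −0.39, against −0.02 over all promoters, and the exception was Rpa1 at 0.02. At Tk1 this local background came to 44.8 reads in vehicle and 37.3 in TAMo, and at Mcm6 to 58.2 and 42.1. These values lie well above the library backgrounds of 4.71 and 5.80 reads. Whether they include reads of the promoter itself is not stated, so summit and local background may not be independent. The authors' fold enrichment, which is the summit over that local background, was higher in TAMo at 34 of the 43 genes (67.0% of all promoters), with a median log2 ratio of 0.17 against 0.09. On that scale 2 genes were at least 1.3-fold lower (4.16% of all promoters), Tk1 (9.14 in vehicle and 4.02 in TAMo) and Prim1 (25.2 and 18.3). Mcm10 (22.5 and 33.4) and Pcna (15.3 and 21.4) were at least 1.3-fold higher (12.4% of all promoters), and Mcm6 was level at 15.3 and 15.2.

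Intervals were also narrower in TAMo at most of these genes. The strongest promoter interval was narrower in TAMo at 27 of 43 genes (62.8%, against 36.3% of all promoters), and the promoter intervals together covered fewer bases at 27 genes (against 30.9%). Interval width depends on the peak caller's threshold as well as on the reads.

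Most of these promoters hold more than 1 summit, and the weaker ones had a lower median ratio than the strongest. The strongest summits of both libraries lay within 50 bp of each other at 40 genes, with a median shift of 9 bp. At Mcm4, Cdt1 and Fen1 different summits were strongest, 454, 388 and 301 bp apart. At Cdt1 the vehicle library's strongest summit had 737 reads against 724 at the same place in TAMo (log2 ratio −0.33). At the TAMo library's strongest Cdt1 summit, 483 bp upstream, vehicle had 558 reads and TAMo 769 (0.16; 0.003 to 0.32). Paired by place, the strongest vehicle summit of 42 genes had a median log2 ratio of −0.22, with 9 at least 1.3-fold lower. Beside the strongest summits, 65 others in 39 genes could be paired between the libraries, and their median log2 ratio was −0.33 against 0.07 for the 24041 such summits of all genes. Of these 65, 26 were at least 1.3-fold lower in TAMo (11.2% of all), 2 were at least 1.3-fold higher (20.3% of all) and 52 lay below 0 (42.5% of all). Summits of 1 gene share its promoter and are not independent.

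Many of the lower summits lay on the transcribed side. Of 36 other summits at least 100 bp downstream of a start site, 18 were at least 1.3-fold lower (10.5% of all such summits), with a median log2 ratio of −0.38 against 0.09. Of 20 at least 100 bp upstream, 4 were at least 1.3-fold lower (13.0% of all), with a median of −0.20 against 0.05. These distances were chosen after the values were seen, and the difference between the sides was not tested. At Cdt1 a summit 420 bp downstream had 274 reads in vehicle and 117 in TAMo, a log2 ratio of −1.53 (−1.85 to −1.21). At Ccne2 a summit 590 bp downstream had 200 and 101 reads (−1.29), and at Tyms one 636 bp downstream had 106 and 60 (−1.12). Rrm1, level at its strongest summit, had 168 and 111 reads at a summit 477 bp downstream (−0.90), and Pold3 had 248 and 152 reads 389 bp downstream (−1.01). The 2 higher summits were at Fen1, 587 bp downstream with 79 and 133 reads (0.45), and at Rpa2, 381 bp downstream with 178 and 296 reads (0.43).

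**Figure D3:**
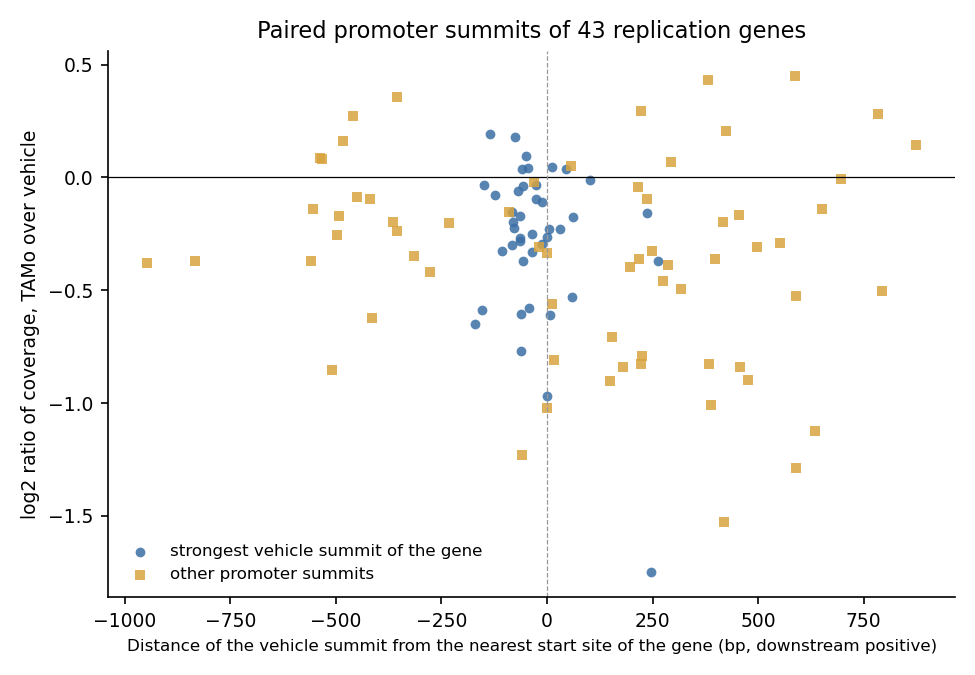
Log2 ratio of coverage at each paired promoter summit of the 43 genes (vertical axis) against its distance from the nearest start site in bp, downstream positive (horizontal axis), with circles for the strongest vehicle summit of a gene and squares for the 65 others. Most squares lie below 0, the lowest being Cdt1 at 420 bp (−1.53), and the lowest circle is Tk1 at 246 bp (−1.75).

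Tk1, Mcm7 and Rrm2 show the differences over a whole locus. Around the Tk1 start, vehicle had 3 promoter intervals, at chr11:117825387-117825660 with 237 reads, chr11:117825676-117826006 with 418 reads and chr11:117826093-117826256 with 119 reads. The TAMo library had 1, at chr11:117825723-117825975 with 153 reads, and the outer vehicle intervals had no TAMo counterpart. An interval 1282 bp downstream had 211 reads in vehicle and 185 in TAMo, or 44.8 and 31.9 times background. In TAMo alone there was an interval 1999 bp upstream, chr11:117828000-117828182, with 247 reads or 42.6 times background. An interval 2283 bp upstream, chr11:117828220-117828542, was open at a like level in both libraries, with 437 and 520 reads or 92.8 and 89.7 times background, and the log2 ratio there was −0.05. At Mcm7 vehicle had 1 interval of 1653 bp, chr5:138170905-138172557, with 4 summits, and TAMo had 3 shorter intervals of 658, 481 and 253 bp in the same stretch. The Mcm7 summit 1 bp from another start site of the gene had 529 reads in vehicle and 321 in TAMo (log2 ratio −1.02). The summit 497 bp downstream had 651 and 648 reads (−0.31). The summit 784 bp downstream went the other way, with 335 and 501 reads (0.28; 0.08 to 0.48).

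Rrm2 had fewer intervals before its start and more coverage after it in TAMo. The vehicle library had intervals at chr12:24706764-24707120 with 342 reads and at chr12:24707545-24707841 with 334 reads, 1256 and 561 bp upstream by their summits, and neither had a TAMo counterpart. The interval over the start had 704 reads in vehicle and 580 in TAMo. Downstream, in an intron of Rrm2, intervals at chr12:24709457-24709690 and chr12:24710199-24710463 had 305 and 222 reads in vehicle, and 460 and 404 reads in TAMo.

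Some of these promoters serve a neighbour as well. The promoter window of 10 genes holds the start site of another protein-coding gene, among them Mcm4 with Prkdc, Mcm7 with Ap4m1, Orc6 with Vps35 and Tk1 with Afmid. In 9 of the 10 pairs both genes are represented by the same summits, so their values cannot be assigned to either gene. The exception was Afmid, whose strongest vehicle summit is that of Tk1 (418 reads) and whose strongest TAMo summit (185 reads) lies in another interval, so no ratio is given for it. The median log2 ratio was −0.10 for the 10 shared windows, 2 of them at least 1.3-fold lower, and −0.23 for the other 33 genes, 7 of them at least 1.3-fold lower.

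E2F motifs were frequent in these promoters, as the sequences above show for Mcm5, Mcm6 and Mcm7. A RefSeq window of 300 bases, 250 before and 50 after the start site, was matched for 36 of the 43 genes, not for Ccne2, Gins1, Gins2, Gins4, Mcm4, Pole and Rfc2. Exact E2F matches on either strand were in 14 windows (38.9%), against 4.34% of 9451 windows of all genes with a promoter ratio. There were 18 separate E2F matches, overlapping ones joined, and 13 of them lay within 100 bases of the start. Mcm6 holds TTTGGCGCGAAA at 110 bases and TTTGGCGC at 47 bases before the start, with CCAAT boxes, read as ATTGG, at 57 and 14 bases before it. Mcm5 holds TTTCGCGCCAAA at 153 bases before the start. Tk1 has neither motif in the window, and its strongest summit lies 168 bases from the RefSeq start. The CCAAT box was in 22 windows (61.1%, against 38.5%), and both motifs together were in 8 (22.2%, against 1.86%). A GC box (GGGCGG) was in 27 (75%, against 68.2%), an ETS motif (CCGGAAGT) in 7 (19.4%, against 8.90%) and the cell cycle homology region (TTTGAA) in 3 (8.33%, against 10.7%). A match of letters is not a bound site.

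Genes with and without an E2F match overlapped in their ratios. The median log2 ratio was −0.27 for the 14 genes with a match, 3 of them at least 1.3-fold lower, and −0.14 for the 22 without, 5 of them at least 1.3-fold lower. The lowest 2 genes, Tk1 and Prim1, had no match. Among genes outside the list, the 396 with a match had a median of −0.03 with 11.4% at least 1.3-fold lower, against 0.03 and 6.69% for those without. GC content had a median of 60.7% over the 36 windows and 61.7% over all. In each of 5 equal classes of all windows by GC content the median of these genes was negative, between −0.23 and −0.15, while the median of all promoters lay between −0.00161 and 0.09.

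Coverage itself was high at these genes, and strong promoters passed the 1.3-fold limit less often. With all promoters ranked by vehicle coverage and split into 5 equal classes, 18 of the 43 genes were in class 5 (the highest), 16 in class 4, 7 in class 3, 2 in class 2 and none in class 1. The share of all promoters at least 1.3-fold lower was 3.67% in class 5 and 11.1% in class 2. In class 5, 2 of the 18 genes (Mcm6 and Mcm7) were at least 1.3-fold lower, and their median log2 ratio was −0.21 against 0.00119 for all promoters there. In class 3, 4 of 7 genes were at least 1.3-fold lower, against 7.15% of all promoters there, and their median was −0.53 against 0.00440. In class 4, 2 of 16 were, against 5.60% of all promoters there, with a median of −0.10 against −0.01. In class 2, 1 of 2 genes was.

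Other genes of the pathway lay between these genes and all promoters. A list of 41 further replication genes was written with earlier results of these data known. Its median log2 ratio was −0.09, and 28 of the genes lay below 0 (68.3%, against 44.0% of all promoters). On the authors' fold enrichment the median was 0.10 and 29 lay above 0, close to the 0.09 and 67.0% of all promoters. At least 1.3-fold lower were 7, against 7.77% of all promoters, and none was at least 1.3-fold higher, against 15.1%. Lowest was Mtbp, which helps to fire origins, with 375 reads in vehicle and 224 in TAMo (−1.04; −1.29 to −0.80). Uhrf1, which keeps DNA methylation at the fork, had 903 and 651 reads (−0.77), and Timeless, of the fork protection complex, had 275 and 201 (−0.75). Recql4 (−0.60), Atad5 (−0.54), which unloads the clamp, and Dna2 (−0.52), a nuclease of the lagging strand, followed, and Tipin, the partner of Timeless, was the seventh at −0.41. At the other end were Tk2, the mitochondrial thymidine kinase, with 509 and 757 reads (0.27), Orc3 (0.22), Pold4 (0.22) and Rpa3 (0.21).

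**Figure D4:**
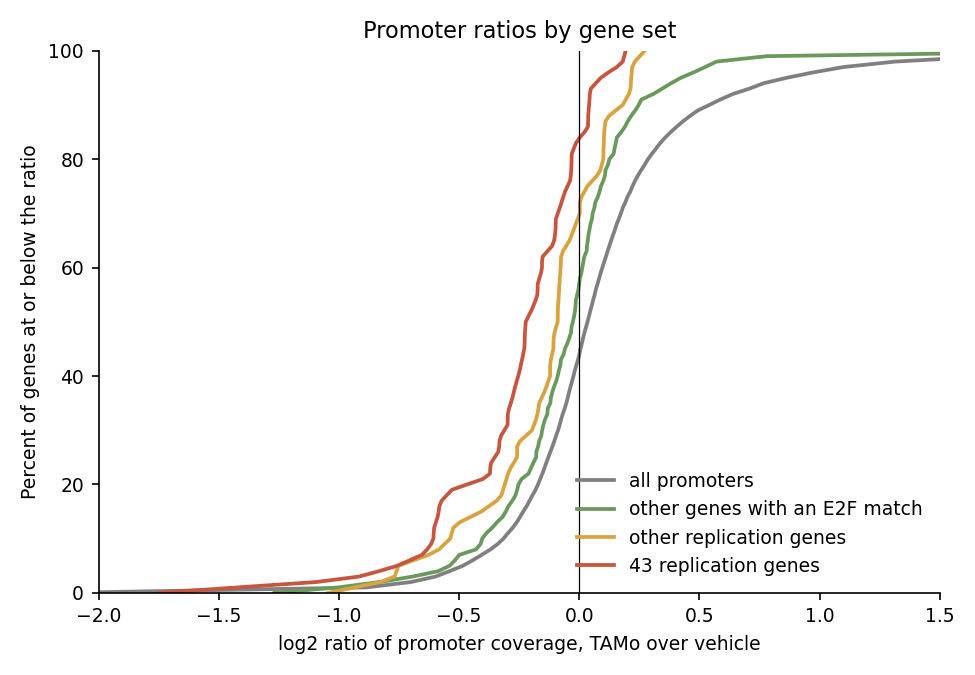
Percent of genes (vertical axis) at or below each log2 ratio of promoter coverage, TAMo over vehicle (horizontal axis, shown from −2 to 1.5), for the 43 genes, 41 other replication genes, other genes with an E2F match and all promoters. At a ratio of 0 the curve of the 43 genes stands at 83.7% and that of all promoters at 44.0%. On the authors' fold enrichment the median was 0.17 for the 43 genes and 0.09 for all promoters.

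Distal regions near these genes lay on both sides of 0. In 106 regions with an interval in both lists, the median log2 ratio was 0.09 (quartiles −0.23 and 0.62), against 0.37 for all 74243 such regions. When the ratios were centred on all regions shared by both lists, whose median was 0.28, the distal median was −0.19. Of the 106, 39 lay below 0 (36.8%, against 30.2% of all). At least 2-fold higher in TAMo were 20 (25.1% of all), and at least 2-fold lower were 2 (3.42% of all). Many of the regions lay inside genes: of the 180 distal TAMo intervals 67 were in the gene itself, 37 in another gene and 76 between genes. Assignment to the nearest start site does not show which gene a region acts on.

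The regions with the largest differences were mostly higher in TAMo. An intron of Lig1 at chr7:13291066-13291753 had 55 reads in vehicle and 596 in TAMo, or 11.7 and 103 times background, a log2 ratio of 3.14 (2.74 to 3.56). An intron of Pold3 at chr7:100106737-100107260 had 37 and 252 reads (2.47). Gins3 had a region 20070 bp away, at chr8:95653420-95653792, with 25 and 148 reads (2.27), and a region nearest to Rrm1, in an intron of Stim1 at chr7:102402019-102402597, had 90 and 514 reads (2.21). At the low end an intron of Pole at chr5:110300656-110301036 had 147 and 49 reads, a log2 ratio of −1.89 (−2.38 to −1.41). An exon of Stim1 nearest to Rrm1 had 67 and 35 reads (−1.24), an intron of Rfc3 had 81 and 50 and an intron of Rfc1 had 64 and 46 (−0.78).

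Of the 180 distal TAMo intervals, 67 overlapped no vehicle interval (37.2%, exact 95% interval 30.1 to 44.7%), against 41.6% of all distal TAMo intervals. Of the 136 distal vehicle intervals, 25 overlapped no TAMo interval (18.4%, 12.3 to 25.9%), against 13.8% of all. The lists were called separately, and when only as many of the strongest TAMo intervals were kept as vehicle has, the counts were 37 of 131 for TAMo (27.9% of all) and 39 of 136 for vehicle (24.3% of all). Ordered by the authors' −log10 q, the first TAMo interval of this kind lay 14997 bp from Ccne2, at chr4:11176178-11176508, with 282 reads or 48.6 times background. Next came an intron of Rpa1 at chr11:75307779-75308191 with 213 reads, and regions in Stim1, nearest to Rrm1, with 252 and 195 reads. An intron of Pola2 had 233 reads and an intron of Pole had 120. Rrm1 had 11 such intervals among its 17 distal TAMo intervals, the most of the 43 genes. Most of these lay in introns of Stim1, up to 84077 bp from the Rrm1 start. Among vehicle intervals without a TAMo counterpart, in the same order, the first was the Rrm2 interval described above, with 342 reads. It was followed by one 2501 bp from Rfc4, at chr16:23129984-23130370, with 180 reads, and by one in an intron of Optn, nearest to Mcm10, with 57 reads. Others lay near Ccne1, with 173 and 111 reads, and in an intron of Gins1, with 43 reads.

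**Figure D5:**
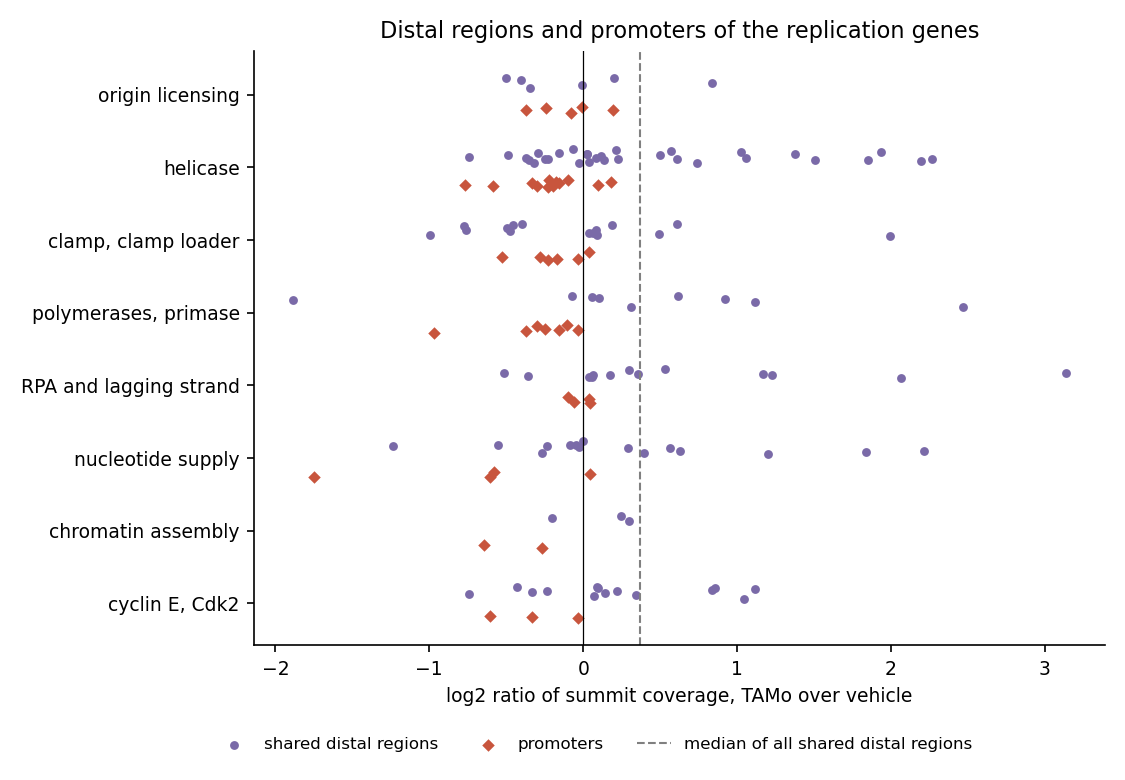
Log2 ratio of coverage, TAMo over vehicle (horizontal axis), for the 106 distal regions open in both libraries (circles) and the 43 promoters (diamonds), by role of the nearest gene, with a dashed line at the median of all shared distal regions (0.37). The circles reach from −1.89 in Pole to 3.14 in Lig1 with a median of 0.09 (−0.19 when centred on all shared regions), while no promoter lies above 0.19.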

How the data were processed

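ATAC-seq was measured in 1 vehicle and 1 TAMo library. Trimmomatic 0.36, Bowtie2, MACS2 and build mm10 appear in the submitters' processing notes, with no settings; whether reads were shifted or duplicates removed is not given there. The authors deposited 1 peak list per library, called separately. Deposited rows give the interval and its summit with the authors' own score, fold enrichment over local background (a ratio), −log10 p-value and −log10 q-value. The vehicle list had 163215 rows and the TAMo list 225656, joined into intervals.

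From there, coverage at each summit was solved from the fold, (coverage + 1)/(background + 1), and the Poisson −log10 p, to within 1% of the step between whole read numbers; 30 and 48 rows had no solution. On data simulated with the same formulas, the recovery returned the exact coverage at all 20000 simulated summits. That checks the solving step alone and cannot show that the deposited values follow these formulas. Each gene was represented by its strongest promoter interval in each list. Genes came from GENCODE M21 and promoter sequences from RefSeq (GRCm38.p6). Python 3.11.15, numpy 2.4.6, pandas 2.3.3, scipy 1.17.1 and matplotlib 3.10.9 were used.

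The genes, lists and folds were chosen with earlier results of these data known. Values are given in full for genes past 1.3-fold and for the ends of each role group, for the 6 lowest and 4 highest other replication genes, for the 4 lowest and 4 highest shared distal regions and for the 6 strongest intervals, by −log10 q, of 1 library alone; those named beyond this were chosen after their values were seen. Alternatives covered scaling, window, threshold, fold, overlap and distance. Sex chromosomes were not analysed here. A marker gene of the B cell list is not reported here. No test between groups was possible.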

Additional observations from a re-analysis of the deposited data

How the results depend on the processing

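The median promoter log2 ratio of the 43 genes, −0.22, was −0.50 when centred on all regions shared by both lists (−0.24 for all promoters). It was 0.17 on the authors' fold enrichment (0.09 for all promoters). The count of 9 genes at least 1.3-fold lower became 28 when so centred (28.4% of all promoters then passed). It became 2 on the authors' fold enrichment (4.16% of all) and 26 when the counting interval had to lie wholly past 0 (17.5% of all). The count of 0 genes at least 1.3-fold higher became 2 on the authors' fold enrichment (12.4% of all) and 2 by the counting interval (26.7% of all). Centred on all promoters, the median was −0.26 and 11 genes were lower. The distal median of 0.09 became −0.19 when centred on all shared regions. Of distal intervals in TAMo alone, 67 became 37 with lists of equal length and 42 within 25 kb of a start site; of those in vehicle alone, 25 became 12 at a −log10 q of at least 10 and 39 with equal lengths. The TAMo over vehicle ratio of intervals, 1.21, became 0.937 with equal lengths, since that shortens the TAMo list. Of 42 alternatives, 29 kept the direction and stayed within the limits set for a like value, 10 moved and 3 reversed; the causes were not tested otherwise. Requiring the summit itself to lie within 1 kb of a start site, an alternative chosen after seeing the data, moved none of the 3 promoter results. No paired analysis was possible because each group has 1 library. The median half-width of a counting interval was 0.44 for distal ratios and 0.15 for promoters.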
